A study of Mus musculus with 12 samples.

Results

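The genes described here are 10 targets of the hypoxia-inducible factors (HIF) that lie outside glycolysis: *Vegfa*, *Bnip3*, *Bnip3l*, *Ankrd37*, *Ero1l*, *Ndrg1*, *Ddit4*, *Mxi1*, *Higd1a* and *Ak4*. They were chosen by name, and 10 of 10 were among the 13232 genes of the table. RNA was measured in bone marrow-derived macrophages, cells grown from mouse marrow with the growth factor M-CSF (20 ng/ml), from wild-type C57B6/J mice. The mice had eaten either a normal diet, ND below, or a high-fat diet, HFD. Both groups used here had been moved to serum-free medium on day 4 and held at 1% oxygen for 1 h on day 7, with 3 libraries per diet. The labels give no age, no length of feeding and no statement that the libraries came from separate mice, so p-values measure only the spread between these libraries. The libraries at normal oxygen were not analysed here, so every difference below is between diets under hypoxia and none is a response to hypoxia.

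HIF is a pair of proteins, an alpha subunit that is destroyed when oxygen is plentiful and a stable beta subunit, that binds short DNA elements near its target genes. In macrophages, as in most cells, its targets adjust the cell to scarce oxygen. Besides glycolysis they include a growth factor for blood vessels, receptors that mark mitochondria for removal, an oxidase of protein folding, and brakes on growth. Several of the genes also answer to other signals, such as amino acid shortage, endoplasmic reticulum stress or glucocorticoids.

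The core of the HIF-binding element reads ACGTG or GCGTG, and promoter sequences are shown for genes that differ in how they stood between the diets, so that the matches can be set beside the values. RefSeq promoters (GRCm38.p6) were listed for 8 of the 10 genes, under the name *Ero1a* for *Ero1l*, and not for *Bnip3l* or *Ndrg1*. Each stretch below lies within the 250 bases before a RefSeq start and reads 5′ to 3′ along the gene. It holds every match found there with up to 20 bases on either side, and has the matches of either strand in capitals. The gene positions given later come from GENCODE M21, and by those the *Ero1l* and *Higd1a* stretches lie inside the gene. Reversed, the cores read CACGT and CACGC, and the run CACGTG holds a match on each strand.

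Ero1l, chr14:45318611-45318720, minus strand: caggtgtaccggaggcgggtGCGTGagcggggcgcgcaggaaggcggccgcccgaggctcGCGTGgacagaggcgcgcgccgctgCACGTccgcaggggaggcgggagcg
Ak4, chr4:101419195-101419277, plus strand: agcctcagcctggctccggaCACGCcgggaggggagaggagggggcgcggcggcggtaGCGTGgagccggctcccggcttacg
Bnip3, chr7:138909517-138909643, minus strand: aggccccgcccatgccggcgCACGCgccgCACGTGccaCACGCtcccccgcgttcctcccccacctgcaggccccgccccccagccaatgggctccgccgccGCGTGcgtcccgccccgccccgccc
Higd1a, chr9:121857838-121857886, minus strand: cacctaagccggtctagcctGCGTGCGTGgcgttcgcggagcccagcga
Ddit4, chr10:59951861-59951977, minus strand: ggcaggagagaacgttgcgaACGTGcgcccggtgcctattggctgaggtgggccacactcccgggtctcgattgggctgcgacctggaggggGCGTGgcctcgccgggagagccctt

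Over all listed starts of these genes, 12 of 14 windows of 250 bases held at least 1 match, and so did 12679 of all 32851 RefSeq windows of that length (38.6%). Of the 4 *Ak4* windows, 3 overlap and hold the same 2 matches, so the windows are not independent. Counted by gene, 8 of 8 had a match at some listed start, against 41.5% of 27025 genes. For *Vegfa* and *Mxi1* the matches were only at later starts, inside the gene. These 8 genes had 14 windows, against 32851 for all 27025 genes, so each had more chances of a match on average. *Bnip3* had 5 matches and *Ankrd37* 4, and 2.58% of all windows had 4 or more. The *Ero1l* window had 3 matches. The windows at the upstream starts of *Vegfa* and *Mxi1* had 0, which says only that these letters are not in them. *Ero1l* and *Ak4*, which had higher means in HFD, and *Ddit4*, which had a lower one, each had matches. Base composition was not matched in these shares, and a match is a run of letters, not a shown binding site.

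The 10 genes did not move together between the diets. On the log2(value + 1) scale, 6 had a higher and 4 a lower mean in HFD, and the median log2 fold change (HFD minus ND) was 0.085, against -0.0034 over all 13232 genes. Leaving out HFD replicate 1 gave a median of 0.026 for the 10, leaving out ND replicate 1 gave 0.034, and leaving out ND replicate 3 gave 0.13. The range was wide, from -0.27 for *Ndrg1* to 0.69 for *Ak4*. None of the 10 passed a limma adjusted p of 0.05, and neither did any other gene (0 of 13232, 0% called). At an unadjusted p under 0.05, limma gave 3 of the 10, *Ero1l* and *Ak4* higher and *Ndrg1* lower in HFD, where 10.6% of all genes (1401) were called, 5.4% higher and 5.18% lower. All HFD values lay on one side of all ND values for 2 of the 10, *Ero1l* and *Ndrg1*, against 14.5% of all genes (7.44% higher, 7.07% lower), a share near the background. The values below are normalized read counts, scaled by the authors to make libraries comparable, and are given for replicates 1, 2 and 3 in that order.

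On the first principal component of the values, a library of each diet stood apart from its group. There ND replicate 3 lay within the range of the HFD libraries. On that component (43.3% of the variance of genes with a mean of at least 100) it scored -3.43, beside 14.0 and 13.5 for the other ND libraries, and HFD replicate 1 scored -1.33, beside -11.3 and -11.4 for the other HFD libraries. By the median absolute log2 difference over genes with a mean of at least 100, HFD replicate 1 was nearest to HFD replicate 2 (0.0893). HFD replicate 1 was also nearer to the ND libraries (0.103 to 0.108) than to HFD replicate 3 (0.133). Of the HFD libraries, replicate 3 was by that measure furthest from the others, at 0.133 and 0.105. Without HFD replicate 1, 3 of the 10 genes did not overlap between the diets (*Ero1l*, *Ndrg1* and *Ak4*), where 30.5% of all genes did not. ND replicate 3 was also the shallowest library, at about 19046400 estimated reads against 22181000 to 24491500 in the others. Without ND replicate 3, 5 of the 10 genes did not overlap between the diets (*Bnip3*, *Ero1l*, *Ndrg1*, *Higd1a* and *Ak4*), where 35.9% of all genes did not, and 4 had an unadjusted limma p under 0.05 against 17.5% of all genes. None of the 10 passed an adjusted p of 0.05 without it, the nearest being *Ero1l* (limma adjusted p 0.0503) and *Ndrg1* (0.0549), while 233 of all genes (1.76%) did. With array weights 3 of the 10 passed, against 8.56% of all genes, and 5 had an unadjusted limma p under 0.05, against 27.6%.

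**Figure D1:**
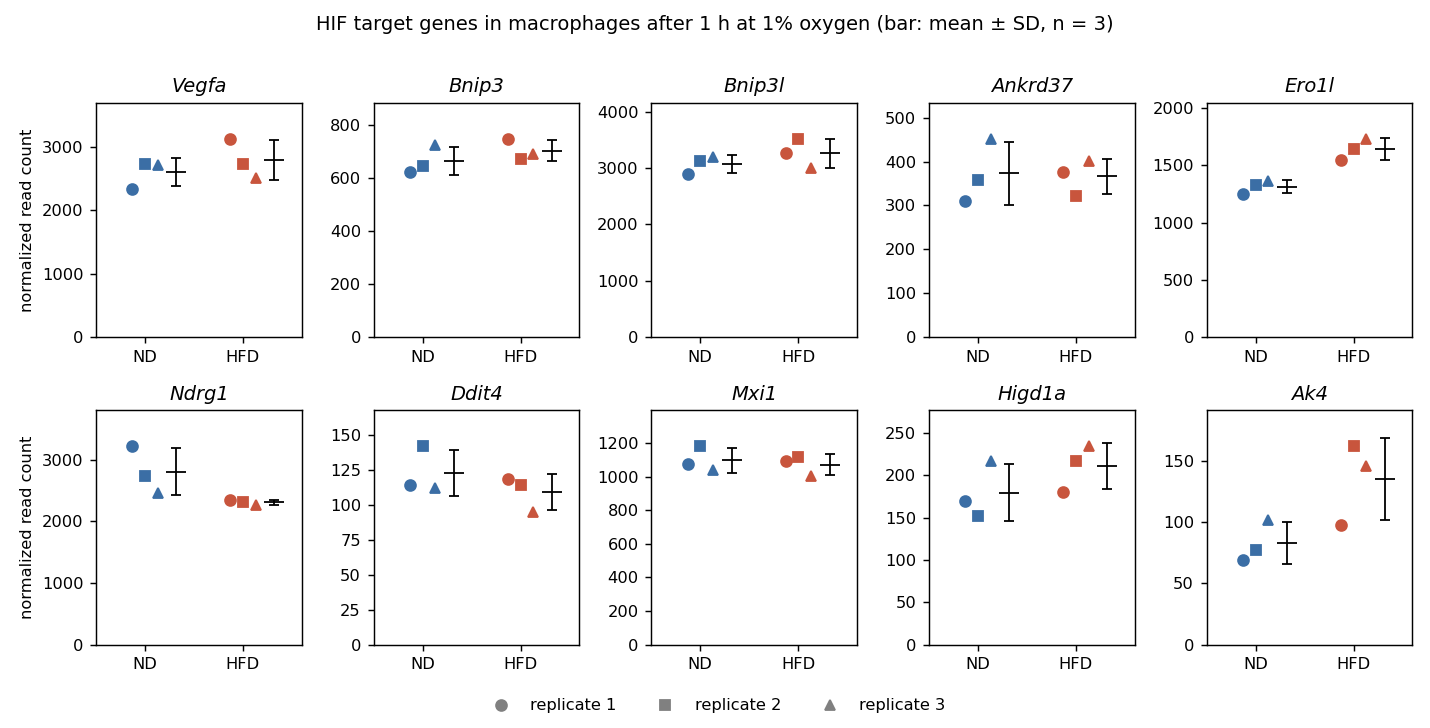
Normalized read count (vertical axes, starting at 0) of each of the 10 HIF targets in 3 ND (blue) and 3 HFD (red) libraries, with marker shapes for replicates and the mean ± SD (n = 3) in black. The diets do not overlap for *Ero1l* and *Ndrg1*, while *Ak4* overlaps only through ND replicate 3 (102) and HFD replicate 1 (97.7).

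*Ero1l* encodes an oxidase of the endoplasmic reticulum that passes oxidizing power to protein disulfide isomerase and so allows disulfide bonds to form. It lies at chr14:45283087-45318771 on the minus strand (GRCm38). The ND libraries had 1249, 1325 and 1365 normalized reads and the HFD libraries 1548, 1646 and 1734. The diets were apart, the lowest HFD value being 13.4% above the highest ND value. Mean normalized reads were 1313 ± 58.8 with ND and 1643 ± 93.4 with HFD (SD, n = 3), or 1.25-fold, with a log2 fold change of 0.32 (SE 0.069, limma adjusted p 0.196). Its spread within a diet was small, an SD of 0.074 on the log2 scale, below that of most genes (percentile 20.7). The difference held its size when any 1 library was left out, the smallest being 0.28 (without HFD replicate 3) and the largest 0.36 (without HFD replicate 1). With limma array weights, which let each library count by its estimated precision, the limma adjusted p was 0.00854, the lowest of its alternatives, which reached 0.860. *Ero1lb*, the pancreatic relative of *Ero1l*, had a log2 fold change of -0.016 (95% interval -0.19 to 0.15, limma adjusted p 0.960).

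*Ak4* and *Higd1a* encode mitochondrial proteins, an adenylate kinase of the matrix that balances adenine nucleotides and a small inner membrane protein linked to the respiratory chain. *Ak4* lies at chr4:101419277-101466995 on the plus strand. With ND it had 69.2, 77.3 and 102 normalized reads, and with HFD 97.7, 162 and 146. HFD replicates 2 and 3 stood above every other library, and HFD replicate 1 lay just under ND replicate 3, which is the overlap. Mean normalized reads were 82.8 ± 17.0 with ND and 135 ± 33.3 with HFD (SD, n = 3), 1.63-fold, with a log2 fold change of 0.69 (SE 0.22, limma adjusted p 0.319). Its size placed it at percentile 98.3 of all genes by absolute fold change, and its spread at percentile 93.2. By normalized count *Ak4* was the lowest of the 10 in ND, and *Ddit4* in HFD (109 against 135 for *Ak4*). *Ak4* had 69.3 estimated reads in its lowest library, where counting error alone is 12.0%. Of its 75-base stretches 8.49% also occur in the pseudogene *Ak3l2-ps*, which was not among the genes listed. Leaving out HFD replicate 2 gave a log2 fold change of 0.54, and leaving out HFD replicate 1 gave 0.90. It passed with array weights (0.95, limma adjusted p 0.0153, against up to 0.910 in its other alternatives).

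Other adenylate kinases served as a comparison within the family. *Ak3*, of the matrix, had a log2 fold change of 0.0017 (95% interval -0.17 to 0.18). *Ak8* stood 0.36 higher in HFD on the log2 scale, its values overlapping (unadjusted limma p 0.0308, adjusted 0.416). Whether *Ak4* differs from these relatives was not tested.

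*Higd1a* had 170, 152 and 218 normalized reads with ND and 181, 217 and 235 with HFD. ND replicate 3 lay with HFD replicates 2 and 3, and the remaining 3 libraries were lower. The log2 fold change was 0.24 (95% interval -0.11 to 0.58, limma adjusted p 0.636). It was 0.38 without ND replicate 3, when the diets no longer overlapped, and 0.13 without ND replicate 2. Of the 75-base stretches of *Higd1a* transcripts, 21.95% also occur in other genes of GENCODE M21, chiefly the antisense gene *Gm47112* and the copy *Gm9790*. *Gm9790* was listed at 40.3 to 67.5 normalized reads. Since neither the strand setting of the authors' counting nor its treatment of shared reads is stated, the *Higd1a* level is uncertain.

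*Ndrg1* encodes a cytoplasmic protein of the N-myc downstream-regulated family, known for strong induction by hypoxia and for restraining growth and spread of tumour cells. It lies at chr15:66929318-66969640 on the minus strand. Normalized reads of *Ndrg1* numbered 3224, 2731 and 2466 with ND, and 2343, 2318 and 2267 with HFD. The ND libraries were spread out and the HFD libraries almost equal, with the highest HFD library 5.00% below the lowest ND library, replicate 3. Mean normalized reads were 2807 ± 385 with ND and 2309 ± 38.8 with HFD (SD, n = 3), 0.823-fold, with a log2 fold change of -0.27 (SE 0.091, limma adjusted p 0.352). The coefficient of variation was 13.7% in ND and 1.68% in HFD. ND replicate 1 carried much of the difference, which was -0.17 without it (unadjusted limma p 0.0541) and -0.36 without ND replicate 3. With array weights *Ndrg1* passed (-0.36, limma adjusted p 0.0203, against up to 0.932 in its other alternatives). Antisense genes cover part of its exons (419 of 6596 bases for *Gm17035*), and the strand setting of the counting is not given in the sources used here. *Ndrg3*, its relative in the table, had a log2 fold change of 0.0075 (95% interval -0.18 to 0.20).

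*Kit*, the stem cell factor receptor listed here as a mast cell marker, was likewise without overlap between the diets, with 226, 134 and 117 normalized reads in ND and 73.4, 72.4 and 104 in HFD. *Cpa3*, *Mcpt4*, *Tpsb2* and *Fcer1a*, the defining mast cell markers, were not among the genes listed. Whether other cells had a part in the *Ndrg1* difference was not tested, and in bulk RNA fewer cells of a type and less RNA per cell cannot be told apart.

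*Ddit4*, also called REDD1, shuts down the growth kinase complex mTORC1. It had 114, 142 and 112 normalized reads with ND and 118, 114 and 94.4 with HFD. ND replicate 2 was high and HFD replicate 3 low, and the other 4 libraries lay between 112 and 118. The log2 fold change was -0.17 (95% interval -0.51 to 0.17, limma adjusted p 0.744), and -0.059 without ND replicate 2. Of 13 other genes of mTORC1 control in the table, 9 had higher and 4 lower means in HFD (median log2 fold change 0.040, and 0.016 without ND replicate 2). *Txnip* (0.17) and *Mlst8* (0.22), 2 of the 13, had an unadjusted limma p under 0.05, where 10.6% of all genes did. Both were higher in HFD (limma adjusted p 0.436 and 0.437). *Txnip* binds thioredoxin and curbs glucose uptake, and *Mlst8* is a subunit of both mTOR complexes.

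*Ddit4* is also known as a target of glucocorticoids and of ATF4, and lists of their targets were read as well. Of 9 glucocorticoid targets, 4 had an unadjusted limma p under 0.05, against 10.6% of all genes. *Klf9* (0.48), *Sgk1* (0.38) and *Dusp1* (0.51) were higher in HFD without overlap, and *Tsc22d3* (-0.40), a classic glucocorticoid-induced gene, was lower with overlap (limma adjusted p 0.217 to 0.353 for the 4). Thus genes of this list stood in both directions, with a median of 0.045, and -0.0044 without HFD replicate 3. Of 16 ATF4 and unfolded protein response targets, 10 were higher and 6 lower in the mean, with a median of 0.033 (0.0084 without HFD replicate 3) and 0 under an unadjusted limma p of 0.05.

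*Mxi1* encodes a partner of MAX that opposes MYC. The ND libraries held 1077, 1183 and 1039 normalized reads of it, and the HFD libraries 1097, 1119 and 1004. The diets overlapped throughout, and each had its lowest value in replicate 3. The log2 fold change was -0.034 (95% interval -0.20 to 0.14, limma adjusted p 0.909), and it was 0.020 without ND replicate 2 and 0.013 without HFD replicate 3. *Myc* itself and the other MYC/MAX genes stayed within -0.19 to 0.17, with 0 of 9 under an unadjusted limma p of 0.05 and a median of 0.012, which was -0.019 without HFD replicate 3.

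*Vegfa*, the growth factor that drives new vessels, was among the more abundant genes of the table (percentile 88.0 by normalized count). Normalized reads of *Vegfa* numbered 2345, 2730 and 2723 with ND and 3134, 2728 and 2515 with HFD. ND replicate 1 was lowest and HFD replicate 1 highest, and the other 4 libraries did not sort by diet. The log2 fold change was 0.10 (95% interval -0.11 to 0.31, limma adjusted p 0.748). Without HFD replicate 1 it was 0.015 and without HFD replicate 3 it was 0.17.

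Of 9 genes of other VEGF ligands and receptors, 4 were in the table. The co-receptors *Nrp1* (0.035) and *Nrp2* (0.14) were abundant, and the ligand *Vegfb* had a log2 fold change of -0.25 (limma adjusted p 0.492). The receptor *Kdr* was lower in HFD at an unadjusted limma p of 0.0302 (log2 fold change -0.51, adjusted p 0.415). It had 172, 126 and 119 normalized reads with ND and 74.4, 98.4 and 120 with HFD. *Kdr* is typical of endothelium. Of 5 endothelial markers, *Pecam1* and *Vwf* were listed, and *Cdh5*, *Tek* and *Emcn* were not. Their summed level, 2444 to 3627 in ND and 2185 to 2306 in HFD, was nearly all *Vwf*, which had a log2 fold change of -0.37 (limma adjusted p 0.369). *Pecam1* stood the other way (0.85, limma adjusted p 0.520), with 20.0, 60.6 and 30.7 normalized reads in ND and 85.2, 72.5 and 37.2 in HFD. Their part in the *Kdr* difference was not tested.

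*Bnip3* and *Bnip3l*, also called NIX, encode outer mitochondrial membrane receptors that tie mitochondria to the autophagy machinery. *Bnip3* had 624, 646 and 723 normalized reads with ND and 749, 672 and 690 with HFD. *Bnip3l* was more abundant, with 2890, 3119 and 3207 in ND and 3262, 3527 and 3008 in HFD. Both genes were lowest in ND replicate 1 and overlapped between the diets. *Bnip3* had a log2 fold change of 0.084 (95% interval -0.10 to 0.27, limma adjusted p 0.767), and *Bnip3l* of 0.086 (-0.080 to 0.25, 0.725). The intervals exclude differences of the size seen for *Ak4*. Leaving out 1 library gave 0.038 to 0.15 for *Bnip3* and 0.029 to 0.14 for *Bnip3l*.

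Both receptors have near-identical copies. Of the 75-base stretches of *Bnip3* transcripts 34.4% occur in other genes, most often in *AC160336.1*, then in the antisense gene *Gm45507*, which covers 504 of its 2265 exonic bases, and in *Gm16439*. *AC160336.1* was listed at 174 to 225 normalized reads, with a log2 fold change of -0.12 and overlapping diets (limma adjusted p 0.784). *Gm16439* had 81.0 to 105 in ND and 107 to 113 in HFD, without overlap (0.21, limma adjusted p 0.653), and *Gm45507* had 39.7 to 63.2. Of the stretches of *Bnip3l* 16.9% were shared, all with *Bnip3l-ps*, which was listed at 540 to 681 normalized reads, so the split between gene and copy depends on the authors' counting. Of 16 other mitophagy receptors and autophagy adaptors, 5 had higher and 11 lower means (median log2 fold change -0.024, and 0.0066 without HFD replicate 3), and 0 had an unadjusted limma p under 0.05 or diets that did not overlap.

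*Ankrd37* encodes a small ankyrin repeat protein that hypoxia induces in many cells. The ND libraries held 311, 357 and 453 normalized reads of it, and the HFD libraries 377, 322 and 401. Here ND held both the lowest and the highest library, replicates 1 and 3. The log2 fold change was -0.017 (95% interval -0.33 to 0.30, limma adjusted p 0.979), -0.14 without ND replicate 1 and 0.13 without ND replicate 3. Its exons overlap those of *Lrp2bp* over 349 of 1539 bases and those of *Ufsp2* over 57, both on the opposite strand. *Ufsp2* was listed at 965 to 1142 normalized reads, with a log2 fold change of 0.0062.

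**Figure D2:**
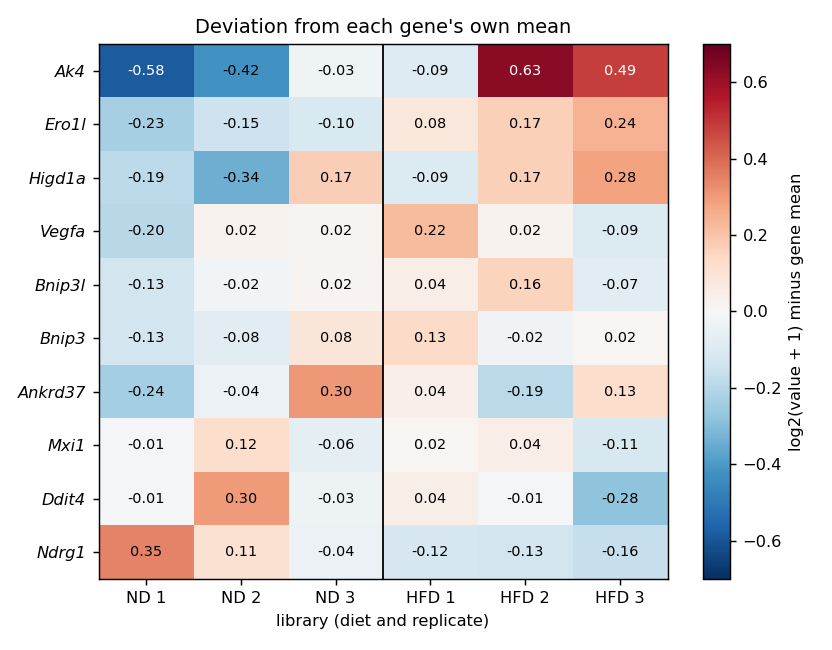
Deviation of log2(value + 1) from each gene's own mean over the 6 libraries (colour and printed value), with genes in rows by log2 fold change and libraries in columns. ND replicate 1 lies below the mean for all genes but *Ndrg1*, and the largest deviations belong to *Ak4*.

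Single libraries stood out in several of these genes. ND replicate 1 was the lowest library for 6 of the 10 genes and lay above a gene's mean only for *Ndrg1*. HFD replicate 3 was lowest for the 3 genes *Ndrg1*, *Ddit4* and *Mxi1*. The mean deviation over the 10 genes, on the log2 scale, was -0.14, -0.050 and 0.033 for ND and 0.028, 0.084 and 0.043 for HFD. *Ak4* weighs most in these means. Without it they were -0.088, -0.0081 and 0.039 for ND and 0.041, 0.023 and -0.0067 for HFD, and the libraries did not sort by diet. Gene by gene, ND replicate 3 lay within the HFD range for 7 of the 10 and outside it for *Ankrd37*, *Ero1l* and *Ndrg1*.

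**Figure D3:**
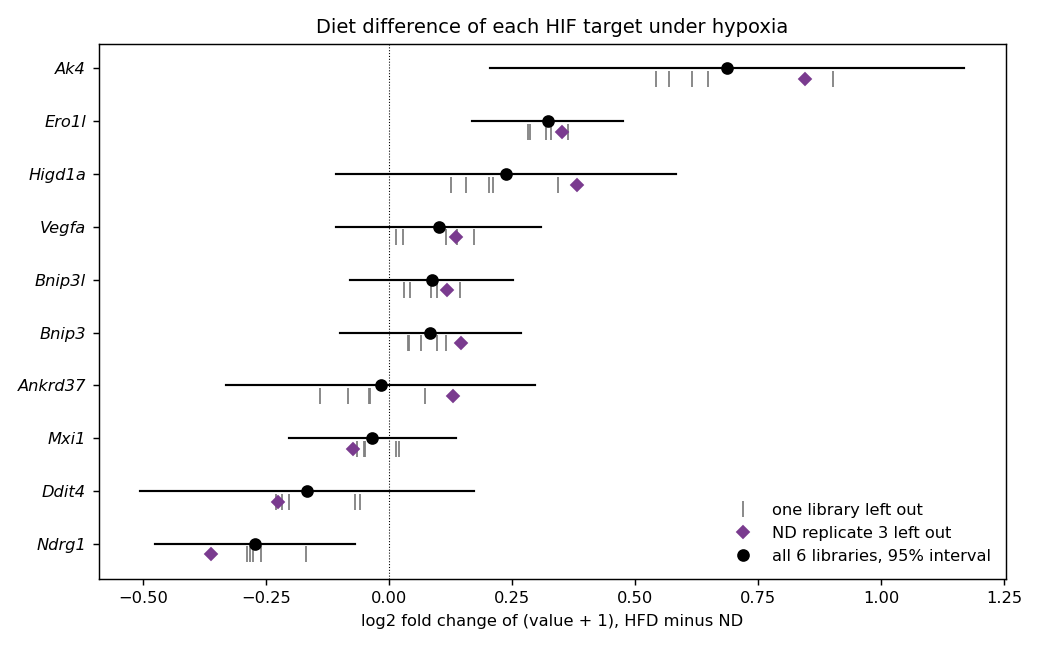
Log2 fold change of (value + 1), HFD minus ND, for each gene with all 6 libraries (black points, lines are limma 95% intervals) and with 1 library left out (grey ticks, purple diamonds without ND replicate 3). Intervals for *Ero1l*, *Ak4* and *Ndrg1* lie on one side of 0, and single libraries change the sign only for *Ankrd37* and *Mxi1*.

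Per kilobase of annotated exon, the most abundant of the 10 in ND was *Bnip3l* (796 ± 42.4 normalized reads per kb), followed by *Vegfa* (607 ± 51.4) and *Ndrg1* (426 ± 58.3). *Bnip3* (293 ± 23.1), *Ero1l* (248 ± 11.1) and *Ankrd37* (243 ± 46.8) came next (SD, n = 3), and the last pair did not differ beyond its spread. *Mxi1* stood at 161 ± 10.9 per kb. *Ddit4* (69.8 ± 9.49) and *Higd1a* (59.1 ± 11.2) did not differ beyond their spread, and *Ak4* was lowest at 17.8 ± 3.67. In HFD *Ero1l* (311 ± 17.7) stood level with *Bnip3* (311 ± 17.9), and *Higd1a* (69.4 ± 9.02) lay above *Ddit4* (62.1 ± 7.26) by less than their spread. The remaining order was that of ND.

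The rest of the HIF programme gives the setting. Of 19 glycolytic HIF targets, 17 had higher means in HFD (median log2 fold change 0.20), 7 did not overlap between the diets and 10 had an unadjusted limma p under 0.05, where 14.5% and 10.6% of all genes did. The lowest p of these belonged to *Aldoc* (-0.59), an aldolase isoform and one of the 2 genes with lower means, and then to *Eno1* (0.36), *Gpi1* (0.27) and *Pkm* (0.37), enzymes of the glycolytic chain (limma adjusted p 0.278 to 0.307). Of 24 other HIF targets outside glycolysis in the table, 13 had higher and 11 lower means (median 0.055, and 0.033 without HFD replicate 3), 8 did not overlap and 7 had an unadjusted limma p under 0.05, 6 of them higher, to be read against the same shares. These were led by *Hmox1* (0.60), *Angptl4* (0.83), *Plin2* (0.32) and *P4ha2* (0.56), with limma adjusted p from 0.189 to 0.318. *Hmox1*, heme oxygenase, also answers to NRF2, *Angptl4* and *Plin2*, a lipase inhibitor and a lipid droplet coat, to fatty acid sensing receptors, and *P4ha2* encodes a collagen prolyl hydroxylase. HIF subunits and oxygen sensors were close to even, 7 higher and 7 lower of 14 (median -0.00063, and 0.011 to 0.045 with 1 library left out), with 0 under an unadjusted limma p of 0.05. *Hif1a* had a log2 fold change of 0.13 (95% interval -0.062 to 0.32). The lists differ in size and level and were not tested against each other.

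**Figure D4:**
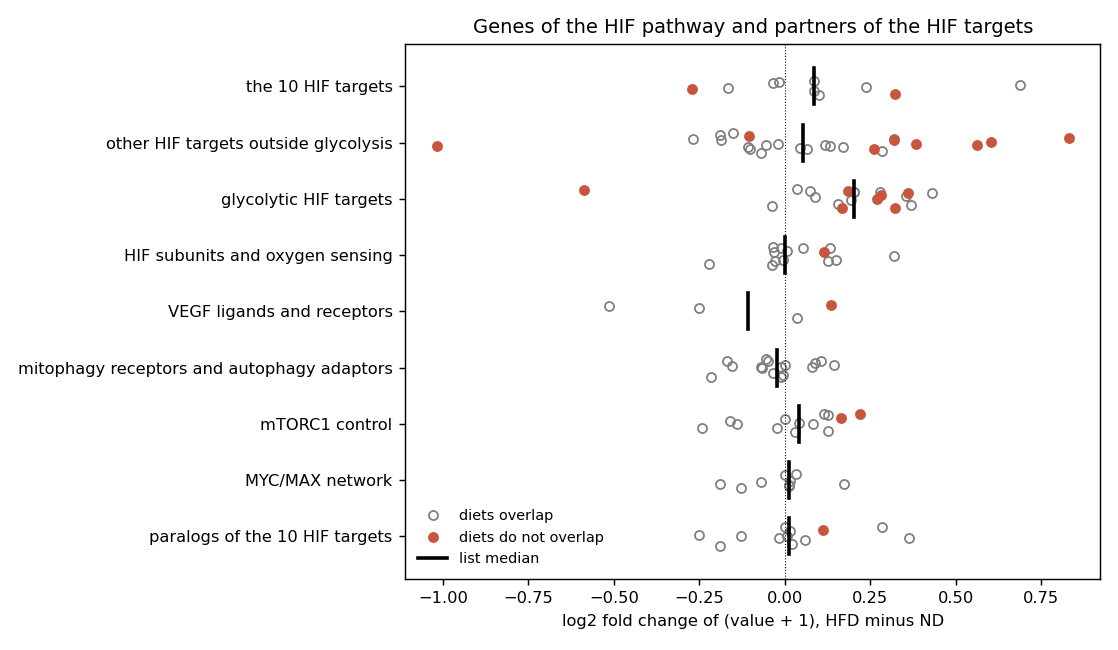
Log2 fold change of (value + 1), HFD minus ND, for each gene (points) of the 10 HIF targets and of 8 lists around them, with list medians as black bars and genes whose diets do not overlap in red. The glycolytic targets lie mostly right of 0 (median 0.20), and the 10 HIF targets lie on both sides (median 0.085).

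The genes whose pattern over the 6 libraries was most like the mean deviation of the 10 were *Clstn1* (Pearson r 0.998), *Gpx1* (0.990), *Arpc2* (0.990), *Tpcn2* (0.989) and *Pf4* (0.988), of 10784 candidates with a mean of at least 100. Against the mean deviation without *Ak4* their r was 0.790 to 0.897. As 81 candidates had r over 0.95 over only 6 libraries of 2 groups, this is a description of likeness and was not tested.

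Markers of the labelled cell type were present: 9 of 9 macrophage markers were listed, with a summed level of 365543 to 419126 in ND and 362975 to 423191 in HFD. Most of that sum is *Lyz2* (216365 to 267532). Of the 9, *Cd14* was lower in HFD (log2 fold change -0.29, limma adjusted p 0.281) and *Adgre1* higher (0.16, 0.520), both without overlap, and the other 7 overlapped. Of 10 neutrophil markers 6 were listed (summed level 1712 to 2455 in ND, 2109 to 3430 in HFD, *Ly6g*, *Camp*, *Mpo* and *Elane* not listed), and 6 of the 6 had higher means in HFD. *Mmp8*, neutrophil collagenase, did not overlap between the diets, with 443, 463 and 452 normalized reads in ND and 707, 1032 and 834 in HFD (log2 fold change 0.90, unadjusted limma p 2.7e-05, adjusted 0.113), and the other 5 overlapped. Listed stromal markers were 3 of 6 (177 to 549 in ND, 51.8 to 337 in HFD), and *Col1a1* (-1.33), *Col1a2* (-1.04) and *Col3a1* (-1.45) all had lower means in HFD, with overlap (limma adjusted p 0.448 to 0.589). Of 6 T cell markers only *Cd4* was listed (-0.70, with overlap, limma adjusted p 0.448). Of the B cell, erythroid, dendritic cell and adipocyte markers 0 were. The proliferation markers, 5 of 5 listed, summed to 8715 to 9628 in ND and 7394 to 10475 in HFD, and 5 of the 5 had lower means in HFD. *Birc5* did so without overlap (-0.28, limma adjusted p 0.353), and *Ccnb1* (-0.31, 0.423) and the other 3 with overlap. The part of these cells in the results was not tested.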

How the data were processed

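Normalized read counts of 13232 genes in 6 libraries (single reads of 75 bases, stranded total RNA after ribosomal RNA removal, 100 ng input, per the labels' protocols) were used. Per the submitters' processing notes STAR, Partek and the mm10 build were involved; versions, annotation, strand setting, filter and normalization are not given in the sources used here. The deposited values are a signal: in each library 57% to 58.4% of the entries from 5 to 1000 fell within 0.02 of a multiple of one common step, as estimated counts divided by a size factor give. As the rest were fractions, no count test was run. Dividing by the step gave about 19046400 to 24491500 reads per library, and every HFD library was deeper than every ND library. NC in a column name was read as ND, since besides HFD the labels name only a normal diet.

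Log2(value + 1) was compared with limma 3.58.1 in R 4.3.3 (mean-variance trend, two-sided) and adjusted by Benjamini-Hochberg over all genes, after a test on simulated data. The genes described and the gene lists were chosen with earlier results of these data known, so no list was tested. Genes named beyond the 10 were those with an unadjusted p under 0.05 in each list, at most the 4 with the smallest p, and the 5 most alike in pattern. Paralogs, pathway partners and marker genes named beside a gene were chosen after their values were seen. Gene positions, exon lengths, overlaps and 75-base copies came from GENCODE M21, promoters from RefSeq, both GRCm38. Intervals are limma's 95%; reads lack molecular identifiers, so counting error covers counting only.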

Additional observations from a re-analysis of the deposited data

How the results depend on the processing

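Over the 10 genes and 15 alternatives, 141 of 150 values had the same direction and the same side of an adjusted p of 0.05, 3 gained a call and 6 changed sign. At an unadjusted p under 0.05, *Ndrg1* lost its call without ND replicate 1 (0.0541), *Higd1a* gained one without ND replicate 3 (0.0246) and with array weights (0.0210), and *Bnip3l* gained one with array weights (0.0137). Those that gained a call at the adjusted p were *Ero1l* (0.35), *Ndrg1* (-0.36) and *Ak4* (0.95) with array weights, which gave HFD replicate 2 a weight of 3.09 and ND replicate 3 one of 0.441. Signs changed for *Ankrd37* (0.00090) and *Mxi1* (0.0010) with array weights, and without 1 library, where *Ankrd37* ran from -0.14 to 0.13 and *Mxi1* from -0.074 to 0.020. Array weights gave 1133 genes under an adjusted p of 0.05 and 3646 under an unadjusted one, against 0 and 1401, and of the 10 genes 3 under an adjusted and 5 under an unadjusted p. Leaving out 1 library gave 0 to 233 genes (2 without HFD replicate 1, 1 without ND replicate 2) under an adjusted p, 700 to 2309 under an unadjusted one, and 2 to 5 of the 10 genes without overlap, where 18.8% to 35.9% of all genes had none.

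A fit with a replicate block found 31 genes under an adjusted p of 0.05, none of the 10 among them. Same-numbered libraries had residual correlations of 0.089, -0.11 and 0.027, and not every library correlated best with its own number. Such residuals are taken from means of 3 libraries, so these values cannot settle whether a shared number marks a pair.

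Without 1 library the median of the 10 genes ran from 0.026 to 0.13. Other list medians ran from 0.033 to 0.096 for other HIF targets outside glycolysis, 0.011 to 0.045 for HIF subunits and oxygen sensing (0.049 with array weights), -0.019 to 0.0030 for the MYC/MAX network (-0.016 with array weights), -0.023 to 0.043 for paralogs, -0.065 to 0.0066 for mitophagy (changing sign without HFD replicate 3), 0.016 to 0.062 for mTORC1 control, 0.0084 to 0.053 for ATF4 and unfolded protein response targets and -0.0044 to 0.057 for glucocorticoid targets. The cause of these changes was not tested. DESeq2 and edgeR were not run on these fractional signal values. Depth limits *Ak4* most, at 69.3 estimated reads in its lowest library.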
